A study of Homo sapiens with 4 samples.

Results

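The genes of glycolysis and of the cellular response to low oxygen were followed in MCF10A cells, a non-tumorigenic line of human breast epithelium, with and without overexpression of HSF1. The set held 39 genes named by function, and it was chosen with earlier results of these data known. It held 19 glycolytic enzymes and 5 genes of glucose and lactate transport and of the pyruvate switch. The rest were 4 genes of the hypoxia-inducible factors (HIF) and their oxygen sensors, and 11 other hypoxia targets. All 39 were among the 63856 genes of the count table, and 38 of them were among the 15830 genes that passed the filter on low counts. HSF1, heat shock factor 1, is the main transcription factor of the heat shock response.

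The RNA came from 2 libraries of wild type (WT) MCF10A and 2 of HSF1-pLVX MCF10A, transduced with the HSF1 cDNA in the lentiviral vector pLVX and selected with puromycin. WT cells were unmodified, so virus, vector and selection differed between the groups together with HSF1 and cannot be told apart from it. Both groups grew in DMEM/F12 with horse serum, insulin, hydrocortisone, EGF and cholera toxin. The oxygen level and the cell density at harvest were not given in the sources used here. Total RNA was depleted of ribosomal RNA and sequenced to between 18688109 and 24184285 counted fragments per library. HSF1 itself stood at 200.4 and 189 CPM (a gene's counts relative to the size of its library, with TMM scaling between libraries) in the WT libraries and at 982 and 999 CPM in the HSF1-pLVX libraries, a log2 difference of 2.35 (edgeR, adjusted p = 1.14e-10). Of 6 basal mammary markers, KRT5, KRT17, ITGB4 and LAMB3 stood above 1000 CPM in every library; KRT5 and TP63 rose in HSF1-pLVX cells, and KRT14, KRT17 and LAMB3 fell. All 6 pan-epithelial and luminal markers, among them CDH1 and EPCAM, fell (edgeR, adjusted p under 0.05). Markers of fibroblasts summed to 7.88 and 10.9 CPM in WT and 15.0 and 13.9 CPM in HSF1-pLVX cells. COL1A1 made up most of each sum, at 7.19 and 10.4 CPM in WT and 10.7 and 9.21 CPM in HSF1-pLVX cells. It was not called. DCN rose (edgeR, adjusted p = 1.1e-07), while COL1A2, COL3A1 and LUM stayed below 0.1 CPM in every library. Markers of endothelium summed to 3.04 and 1.94 CPM in WT and 13.1 and 14.3 CPM in HSF1-pLVX cells, where KDR made up most of the sum. Those of blood stayed below 0.5 CPM, with PTPRC at 0 in all 4 libraries. The part of these markers in the results was not tested.

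Glycolysis splits glucose to pyruvate in the cytosol, and lactate dehydrogenase then turns pyruvate to lactate or back. When oxygen is short, the HIF alpha proteins, HIF1A and EPAS1 (HIF-2 alpha), escape the EGLN hydroxylases that otherwise mark them for destruction, pair with ARNT and bind the core ACGTG or GCGTG near their target genes, many of which encode glycolytic enzymes. This control acts on the proteins, which RNA-seq does not measure. Breast epithelium and its tumours use these genes to adjust fuel use and vessel supply, and carbonic anhydrase IX is a widely used marker of hypoxia in tumours.

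Promoter sequence was examined first, since both HIF and HSF1 bind DNA at known words. RefSeq promoter windows (GRCh38.p14), from 250 bases before to 50 bases after the annotated start, were matched for 34 of the 39 genes; VEGFA, SLC2A3, SLC16A1, NDRG1 and BNIP3L had no entry. The HIF core was searched as ACGTG or GCGTG on both strands, so that the palindrome CACGTG counted once for each strand. It was found in 25 of the 34 promoters (73.5%), against 61.8% of the 10972 promoters of genes tested and 48.4% of all 27305 promoters. Among the 19 genes with a promoter entry that rose in HSF1-pLVX cells (32.7% of all tested genes rose), 13 held it (68.4%), as did 4 of the 4 that fell and 8 of the 11 that were not called (72.7%). Over all tested genes with a promoter entry, the shares were 64.1% of those that rose, 58.7% of those that fell and 62.7% of those not called. A pair of heat shock units, GAANNTTC or TTCNNGAA, was found in 2 of the 34 promoters (5.88%), those of DDIT4 and PGK1, against 10.2% of the promoters of genes tested. A match describes the letters and not a bound site.

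Printed here are the 250 bases upstream of the start for the pair of hypoxia-induced carbonic anhydrases, for DDIT4, and for the lactate dehydrogenase pair, whose RNA levels are set side by side further on; each reads 5′ to 3′ on the gene's own strand, and capitals mark the HIF core. The windows are chr9:35673678-35673927 (plus strand) for CA9, chr15:63381847-63382096 (minus strand) for CA12, chr10:72273674-72273923 (plus strand) for DDIT4, chr11:18394313-18394562 (plus strand) for LDHA and chr12:21657843-21658092 (minus strand) for LDHB.
CA9: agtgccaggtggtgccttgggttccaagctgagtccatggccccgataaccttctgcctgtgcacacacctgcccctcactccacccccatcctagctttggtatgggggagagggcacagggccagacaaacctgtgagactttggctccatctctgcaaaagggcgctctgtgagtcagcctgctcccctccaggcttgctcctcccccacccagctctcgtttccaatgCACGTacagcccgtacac
CA12: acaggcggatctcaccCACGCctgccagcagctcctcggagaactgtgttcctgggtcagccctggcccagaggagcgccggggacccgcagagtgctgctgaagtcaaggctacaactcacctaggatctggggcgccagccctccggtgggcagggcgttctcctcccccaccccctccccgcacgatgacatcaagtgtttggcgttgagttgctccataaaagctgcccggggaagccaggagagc
DDIT4: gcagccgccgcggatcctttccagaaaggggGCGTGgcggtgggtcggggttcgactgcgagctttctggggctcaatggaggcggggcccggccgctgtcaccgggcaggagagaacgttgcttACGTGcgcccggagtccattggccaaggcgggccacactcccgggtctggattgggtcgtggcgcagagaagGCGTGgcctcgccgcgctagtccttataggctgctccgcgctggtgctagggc
LDHA: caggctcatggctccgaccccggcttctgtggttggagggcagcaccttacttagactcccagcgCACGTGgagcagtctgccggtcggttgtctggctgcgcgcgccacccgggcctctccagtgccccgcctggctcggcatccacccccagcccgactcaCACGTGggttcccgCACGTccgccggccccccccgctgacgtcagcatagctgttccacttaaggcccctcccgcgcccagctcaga
LDHB: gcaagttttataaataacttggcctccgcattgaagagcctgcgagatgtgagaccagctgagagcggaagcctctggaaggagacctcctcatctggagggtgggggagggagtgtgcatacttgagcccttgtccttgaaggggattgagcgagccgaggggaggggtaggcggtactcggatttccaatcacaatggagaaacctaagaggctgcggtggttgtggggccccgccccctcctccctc
The LDHA sequence held 5 matches to the HIF core, 4 of them from CACGTG read on both strands, and that of LDHB held none. In the full window, which runs 50 bases past the start, LDHB held 1 match, 27 bases after the start, and so counts among the 25. The CA9 sequence held 1 match, 18 bases before the start, that of CA12 held 1 and that of DDIT4 held 3. DDIT4 also held TTCCAGAA, a match to the heat shock pair, that began 232 bases before the start.

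Across the set, 21 of the 38 tested genes rose and 5 fell with HSF1 overexpression (edgeR, adjusted p under 0.05), and the other 12 were not called. These counts need to be read against a comparison in which 65.9% of all tested genes were called, 32.7% higher and 33.2% lower. The share of the set that was called, 68.4%, was close to that of all genes. The median log2 difference was 0.33 in the set and 0.02 over all genes tested. A difference of at least 2-fold was found for 10 genes that rose and for 1 that fell, where 14.9% of all tested genes rose and 14% fell by as much. The libraries of the groups did not overlap for 32 of the 38 genes, against 83.1% of all genes tested; HSF1-pLVX lay above WT for 26 of them (42.1% of all genes tested) and below for 6 (41%). The study asked for signal ratios past 2 or 0.5 in replicate 1 and in replicate 2 alike; applied to the normalized values it deposited, this rule made 10 genes of the set higher (5% of all rows) and BNIP3L alone lower (6.42% of all rows). The count of genes that fell was 3 in place of 5 without WT replicate 2, and likewise without HSF1-pLVX replicate 2.

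**Figure D1:**
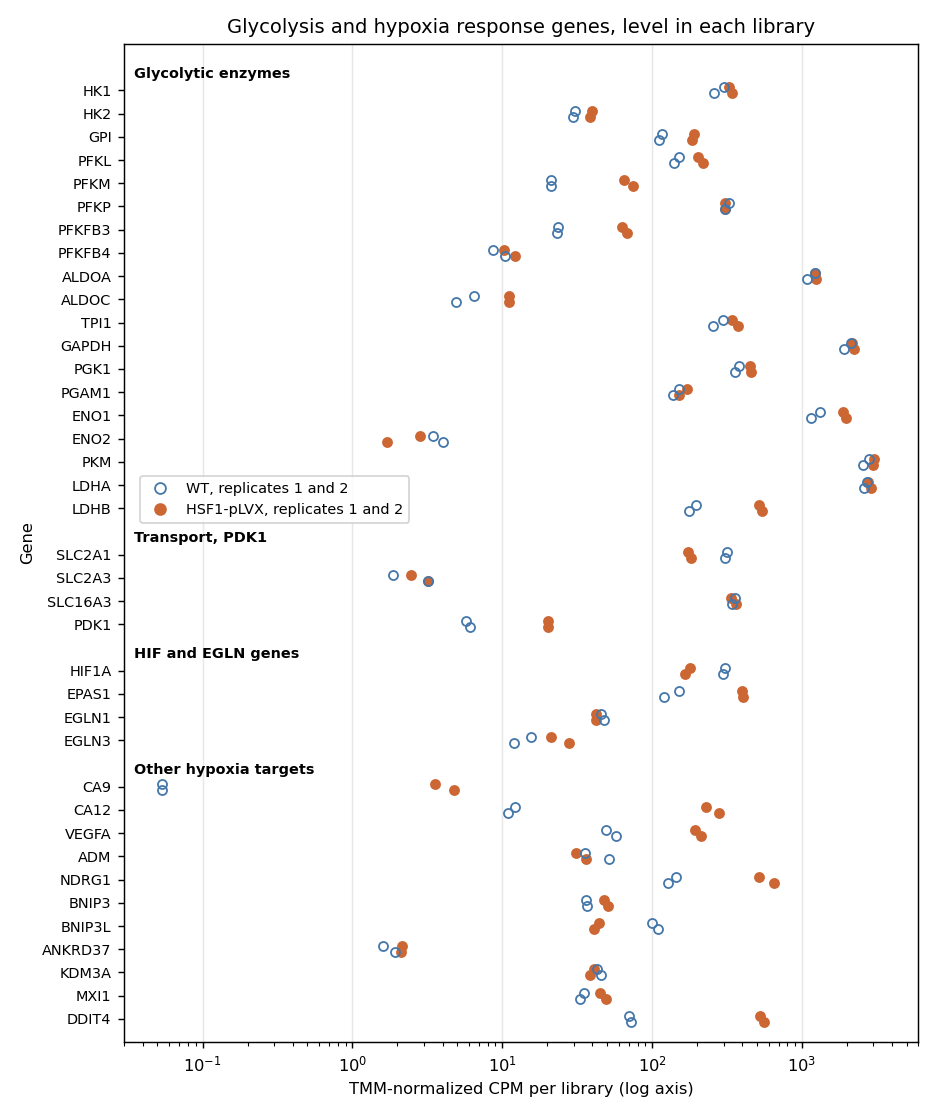
Level of each of the 38 tested genes in each of the 4 libraries, as TMM-normalized CPM on a log axis. Open circles are the 2 WT libraries and filled circles the 2 HSF1-pLVX libraries; CA9, CA12, DDIT4 and NDRG1 lie far to the right in HSF1-pLVX cells, while LDHA, PKM, GAPDH and SLC16A3 lie close together.

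The other hypoxia targets held the largest increases of the set. Of these 11 genes, 7 rose, 2 fell and 2 were not called, where 32.7% of all tested genes rose and 33.2% fell. Above 2-fold were 5 of the increases and 1 of the decreases, against 14.9% and 14% of all tested genes. Their summed level went from 530 and 548 CPM in WT to 1679 and 1924 CPM in HSF1-pLVX cells. The count of 7 increases held under each alternative test of significance that was run. The ratio rule of the study, which is not such a test, gave 5 on the deposited values.

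CA12 and CA9 encode carbonic anhydrases of the cell surface, which hydrate carbon dioxide and help to control pH outside the cell. CA12 (ENSG00000074410.13, hg38 chr15:63321378-63382161) stood at 12.2 and 11.0 CPM in the WT libraries and at 228 and 279 CPM in the HSF1-pLVX libraries. Both HSF1-pLVX libraries were thus far above both WT libraries, with a log2 difference of 4.45 ± 0.126 (SE, n = 2 per group; edgeR, adjusted p = 4.05e-12). CA9 (ENSG00000107159.12, hg38 chr9:35673856-35681159) was near the limit of detection in WT, with 1 count in each library, and had 89 and 94 counts in the HSF1-pLVX libraries, or 0.0533 and 0.0538 CPM against 3.55 and 4.73 CPM. The ratio of the levels summed over each group was 76.0, with a 95% exact interval of 20.7 to 632 that covers counting error only (edgeR, adjusted p = 6.32e-08). The exons of CA9 overlap those of ARHGEF39 on the opposite strand over 38.5% of their length, and ARHGEF39 went from 2.34 and 2.96 CPM to 8.36 and 6.69 CPM. The strand setting of the counting was not given in the sources used here, so reads of the shared stretch cannot be assigned, and the part of ARHGEF39 in the CA9 counts was not tested. Although the log2 differences of both genes were large, CA9 remained a rare transcript: per kb of counted exon its mean level in HSF1-pLVX cells was 2.48 CPM, where that of CA12 was 34.6.

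DDIT4 (REDD1), an inhibitor of mTORC1 that is induced by low oxygen and by other stresses, was the next largest. DDIT4 (ENSG00000168209.4, hg38 chr10:72273920-72276036) stood at 70.5 and 72.5 CPM in WT and at 529 and 560 CPM in HSF1-pLVX cells. The log2 difference was 2.93 ± 0.0980 (SE, n = 2 per group; edgeR, adjusted p = 1.59e-11), and the libraries within each group lay close together. A gene annotated opposite to DDIT4 over 41.2% of its exons had 0 counts in all 4 libraries. With the strand setting unknown, these counts do not show how reads of the shared stretch were assigned.

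NDRG1, a stress-responsive gene linked to differentiation and to the suppression of metastasis, and VEGFA, the growth factor that draws in vessels, both rose by log2 differences near 2. NDRG1 (ENSG00000104419.14, hg38 chr8:133237171-133302022) stood at 146 and 129 CPM in WT and at 514 and 649 CPM in HSF1-pLVX cells, a log2 difference of 2.08 ± 0.120 (SE, n = 2 per group; edgeR, adjusted p = 2.19e-09). VEGFA (ENSG00000112715.21, hg38 chr6:43770184-43786487) stood at 49.3 and 57.1 CPM in WT and at 193 and 214 CPM in HSF1-pLVX cells, a log2 difference of 1.94 ± 0.100 (SE, n = 2 per group; edgeR, adjusted p = 7.44e-10). For both genes the lowest HSF1-pLVX library was above 3 times the highest WT library.

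The pair of mitophagy receptors went in opposite directions. BNIP3L (ENSG00000104765.15, hg38 chr8:26382898-26505636), also known as NIX, fell from 101 and 110 CPM to 44.6 and 41.3 CPM, a log2 difference of -1.29 ± 0.0883 (SE, n = 2 per group; edgeR, adjusted p = 1.28e-08). It was the only gene of the set that fell by more than 2-fold. BNIP3, its relative and likewise a receptor for the removal of mitochondria, rose from 36.5 and 36.9 CPM to 48.1 and 50.9 CPM, a log2 difference of 0.43 (edgeR, adjusted p = 5.09e-04).

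MXI1, which antagonizes MYC, rose from 34.9 and 33.2 CPM to 45.1 and 48.9 CPM, a log2 difference of 0.46 (edgeR, adjusted p = 3.86e-04). ADM, the vasodilator peptide adrenomedullin, stood at 36.0 and 51.4 CPM in WT and at 30.9 and 36.5 CPM in HSF1-pLVX cells, so the groups overlapped, and it fell by 0.38 on the log2 scale (edgeR, adjusted p = 0.0264). The WT libraries of ADM were unlike each other, and the call was lost without WT replicate 2 (edgeR, adjusted p = 0.422), without HSF1-pLVX replicate 1 (adjusted p = 0.203) and without HSF1-pLVX replicate 2 (adjusted p = 0.168). KDM3A, a histone demethylase, and ANKRD37, an ankyrin repeat protein, were not called, with log2 differences of -0.16 and 0.27. ANKRD37 had between 30 and 54 counts per library. UFSP2 overlaps 35.2% of its exons on the opposite strand and stood between 15.4 and 18.1 CPM. Reads of that shared stretch cannot be assigned either.

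**Figure D2:**
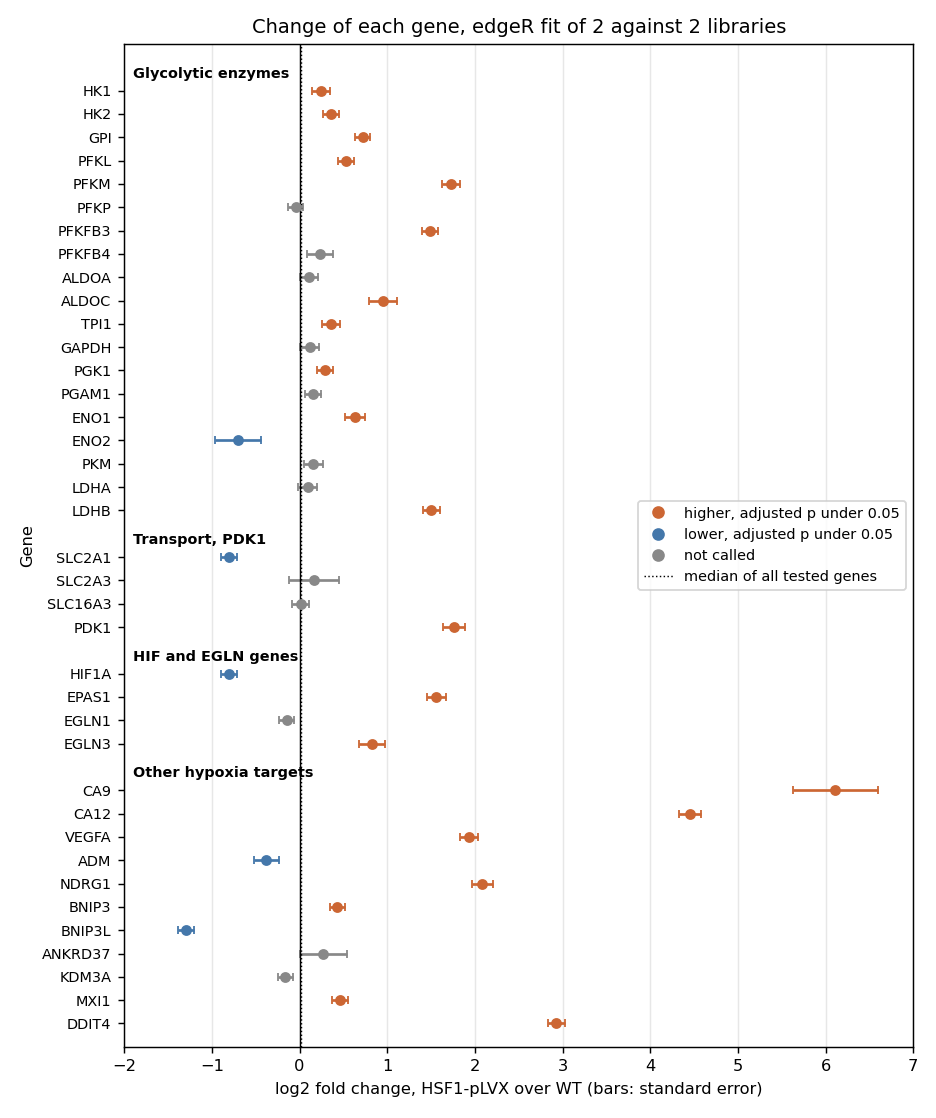
Log2 difference between HSF1-pLVX and WT cells for the 38 tested genes, with bars of 1 SE from edgeR (2 libraries per group); orange points were called higher and blue points lower at an adjusted p under 0.05, grey points were not called, and the dotted line is the median of all tested genes. Most points of the glycolytic enzymes lie between 0 and 1, while CA9, CA12, DDIT4 and NDRG1 lie above 2; the point of CA9 depends on the prior count.

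The genes that encode the HIF alpha subunits moved apart. HIF1A (ENSG00000100644.16, hg38 chr14:61695513-61748259), the alpha subunit of HIF-1, fell from 305 and 298 CPM in WT to 179 and 165 CPM in HSF1-pLVX cells. EPAS1 (ENSG00000116016.13, hg38 chr2:46293667-46386703), the alpha subunit of HIF-2, rose from 151 and 121 CPM to 397 and 406 CPM. The log2 difference was -0.81 ± 0.0904 for HIF1A (SE, n = 2 per group; edgeR, adjusted p = 2.20e-06) and 1.56 ± 0.109 for EPAS1 (SE, n = 2 per group; edgeR, adjusted p = 1.58e-08). The order of the pair was reversed on the scale of CPM per kb of exon: the means were 58.6 for HIF1A and 18.6 for EPAS1 in WT, and 33.5 and 54.9 in HSF1-pLVX cells. EGLN3, an oxygen sensor that is itself a HIF target, rose from 15.5 and 11.9 CPM to 21.2 and 27.7 CPM, a log2 difference of 0.83 (edgeR, adjusted p = 1.82e-04). Without HSF1-pLVX replicate 2 this call was lost (edgeR, adjusted p = 0.0598). EGLN1, the main sensor of oxygen for HIF1A, was not called, with a log2 difference of -0.15.

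Among the other genes of oxygen sensing, 2 of 10 tested rose, 4 fell and 4 were not called, a called share of 60% where that of all tested genes was 65.9%. VHL, which recognizes the hydroxylated HIF alpha proteins and leads to their destruction, rose from 44.4 and 50.6 CPM to 104 and 97.7 CPM (log2 difference 1.09; edgeR, adjusted p = 1.05e-07). CITED2, a HIF target that competes with HIF1A for its coactivators, fell from 103 and 124 CPM to 22.5 and 28.6 CPM (log2 difference -2.15; edgeR, adjusted p = 1.46e-09). ARNT2, an alternative partner of the HIF alpha subunits, was rare and fell by 1.03 on the log2 scale (edgeR, adjusted p = 0.0210). ARNT itself had means of 36.0 CPM in WT and 36.7 CPM in HSF1-pLVX cells and was not called (edgeR, adjusted p = 0.807). HIF1AN, of the same list, fell by 0.66 on the log2 scale (edgeR, adjusted p = 8.81e-06).

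Of the 19 glycolytic enzymes, 11 rose, 1 fell and 7 were not called, and 3 increases were above 2-fold, those of PFKM, PFKFB3 and LDHB. The share called, 63.2%, was close to the 65.9% of all tested genes, of which 32.7% rose and 14.9% rose by 2-fold or more. Their median log2 difference was 0.30, and their summed level went from 12218 and 11154 CPM in WT to 13764 and 14070 CPM in HSF1-pLVX cells. The count of increases was 8 without WT replicate 2 and 8 without HSF1-pLVX replicate 2. The most abundant enzymes of the pathway hardly moved. LDHA (ENSG00000134333.13, hg38 chr11:18394388-18408425) stood at 2701 and 2579 CPM in WT and at 2751 and 2879 CPM in HSF1-pLVX cells, a log2 difference of 0.09 ± 0.109 (SE, n = 2 per group; edgeR, adjusted p = 0.470). GAPDH (ENSG00000111640.14, hg38 chr12:6533927-6538374), glyceraldehyde-3-phosphate dehydrogenase and a common reference gene, stood at 2131 and 1925 CPM in WT and at 2166 and 2228 CPM in HSF1-pLVX cells, a log2 difference of 0.12 ± 0.109 (SE, n = 2 per group; edgeR, adjusted p = 0.363). PKM and ALDOA, the main pyruvate kinase and aldolase, had log2 differences of 0.16 and 0.10 and were not called either. ENO1, the main enolase, was the exception among the enzymes above 1000 CPM: it rose from 1326 and 1157 CPM to 1880 and 1966 CPM (log2 difference 0.63; edgeR, adjusted p = 1.49e-04).

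Phosphofructokinase and its regulators lie at the step that commits glucose to glycolysis. PFKM (ENSG00000152556.15, hg38 chr12:48105139-48146404), the muscle type, stood at 21.1 and 21.2 CPM in WT and at 65.0 and 75.2 CPM in HSF1-pLVX cells, a log2 difference of 1.73 ± 0.0982 (SE, n = 2 per group; edgeR, adjusted p = 1.90e-09). PFKL, the liver type, rose from 152 and 140 CPM to 203 and 219 CPM (log2 difference 0.53; edgeR, adjusted p = 1.39e-04), while PFKP, the platelet type, was not called. PFKFB3 (ENSG00000170525.19, hg38 chr10:6144934-6254644), which makes fructose-2,6-bisphosphate, the activator of phosphofructokinase, stood at 23.5 and 23.3 CPM in WT and at 63.0 and 68.4 CPM in HSF1-pLVX cells, a log2 difference of 1.49 ± 0.0908 (SE, n = 2 per group; edgeR, adjusted p = 3.90e-09). PFKFB4, its relative, was not called (log2 difference 0.23; edgeR, adjusted p = 0.178). Per kb of exon, PFKM made up 3.30% and 3.55% of phosphofructokinase RNA in WT and 9.36% and 10.5% in HSF1-pLVX cells, and PFKP remained the main form at 66.8% and 64.5%, down from 77.3% in both WT libraries.

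Lactate dehydrogenase RNA also shifted, towards its less abundant subunit. LDHB (ENSG00000111716.12, hg38 chr12:21635342-21757857), the heart type, stood at 197 and 177 CPM in WT and at 518 and 540 CPM in HSF1-pLVX cells, a log2 difference of 1.50 ± 0.0969 (SE, n = 2 per group; edgeR, adjusted p = 6.94e-09). Since LDHA hardly moved, the share of LDHB in the RNA of the pair, per kb of exon, went from 13.2% and 12.5% to 28.2% and 28.1%. These shares are a description and carry no test of their own. They also depend on the counted exon lengths, 6210 bases for LDHA and 2983 for LDHB.

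**Figure D3:**
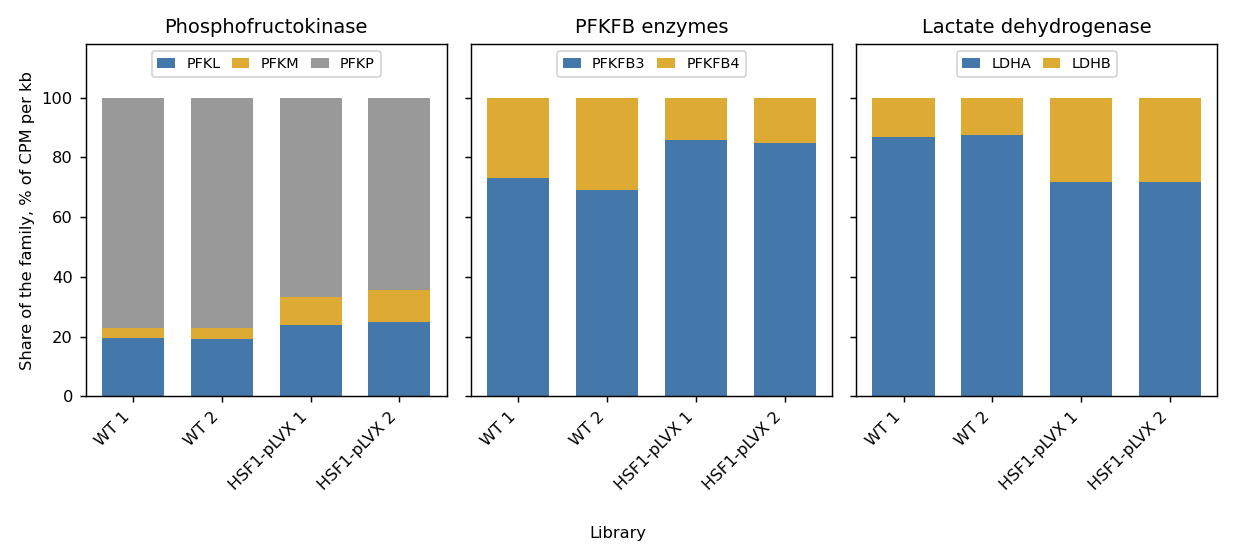
Share of each isoenzyme in the RNA of its family, in percent of the family's summed CPM per kb of exon, in the 2 WT and 2 HSF1-pLVX libraries. PFKM, PFKL, LDHB and PFKFB3 took a larger share in both HSF1-pLVX libraries than in both WT libraries.

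Of the other enzymes, GPI, which turns glucose-6-phosphate to fructose-6-phosphate, rose from 116 and 112 CPM to 192 and 184 CPM (log2 difference 0.72; edgeR, adjusted p = 4.14e-06). ALDOC, the brain type of aldolase, was rare and rose from 6.50 and 4.95 CPM to 11.0 and 11.1 CPM (log2 difference 0.95; edgeR, adjusted p = 1.10e-04). ENO2, the neuronal enolase and the only enzyme that fell, stood at 3.46 and 4.04 CPM in WT and at 2.83 and 1.71 CPM in HSF1-pLVX cells (log2 difference -0.70; edgeR, adjusted p = 0.0299). The HSF1-pLVX libraries of ENO2 were unlike each other: without replicate 1 the log2 difference was -1.12 (edgeR, adjusted p = 0.00864), without replicate 2 it was -0.40 (adjusted p = 0.220), and without WT replicate 2 the adjusted p was 0.0775.

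The hexokinases trap glucose in the cell. HK2 (ENSG00000159399.9, hg38 chr2:74833981-74893359), the inducible form, stood at 30.7 and 29.9 CPM in WT and at 39.5 and 38.3 CPM in HSF1-pLVX cells, a log2 difference of 0.36 ± 0.0891 (SE, n = 2 per group; edgeR, adjusted p = 0.00251). HK1, the form found in most tissues, rose by 0.24 on the log2 scale (edgeR, adjusted p = 0.0440), and lost this call in 8 alternatives. The adjusted p was 0.0652 with the replicate block (edgeR), 0.0724 with DESeq2's size factors (edgeR), 0.0722 with no filter on low counts (edgeR), 0.107 with DESeq2 and 0.142 with limma on the deposited values. HK1 also lost it without WT replicate 2 (edgeR, adjusted p = 0.425), without HSF1-pLVX replicate 1 (adjusted p = 0.0636) and without HSF1-pLVX replicate 2 (adjusted p = 0.289). TPI1, triosephosphate isomerase, and PGK1, phosphoglycerate kinase, rose by 0.36 and 0.30 on the log2 scale (edgeR, adjusted p = 0.00592 and 0.0112). Without WT replicate 2 the adjusted p was 0.0816 for TPI1 and 0.0847 for PGK1 (edgeR), and without HSF1-pLVX replicate 2 it was 0.152 and 0.0857. PGAM1, phosphoglycerate mutase, was not called (log2 difference 0.16; edgeR, adjusted p = 0.163).

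Summed over isoenzymes, the level was higher in both HSF1-pLVX libraries than in both WT libraries at 10 of the 11 steps from hexokinase to lactate dehydrogenase. Among all tested genes, HSF1-pLVX lay above WT without overlap in 42.1%, and ALDOA, GAPDH and PKM, the main genes of 3 of these steps, were not called. At the other step, phosphoglycerate mutase, the groups overlapped. The ratio of the means ranged from 1.08 at aldolase and at GAPDH to 1.55 at enolase and 1.65 at glucose-6-phosphate isomerase. Per kb of counted exon, that isomerase was also the lowest step, at 12.5 in WT and 20.6 in HSF1-pLVX cells. GAPDH, at 680 and 737, was the highest. This ranking depends on the counted exon length, 9112 bases for GPI and 2568 for PGAM1. In CPM, the means of GPI were 114 in WT and 188 in HSF1-pLVX cells, and those of PGAM1 were 144 and 161. A second GPI entry, on the contig KI270866.1, shared 30 of the 43 exon lengths of GPI and held between 1 and 4 counts per library. How reads that match both entries were counted was not given in the sources used here. Their part in the level and rank of GPI was not tested.

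**Figure D4:**
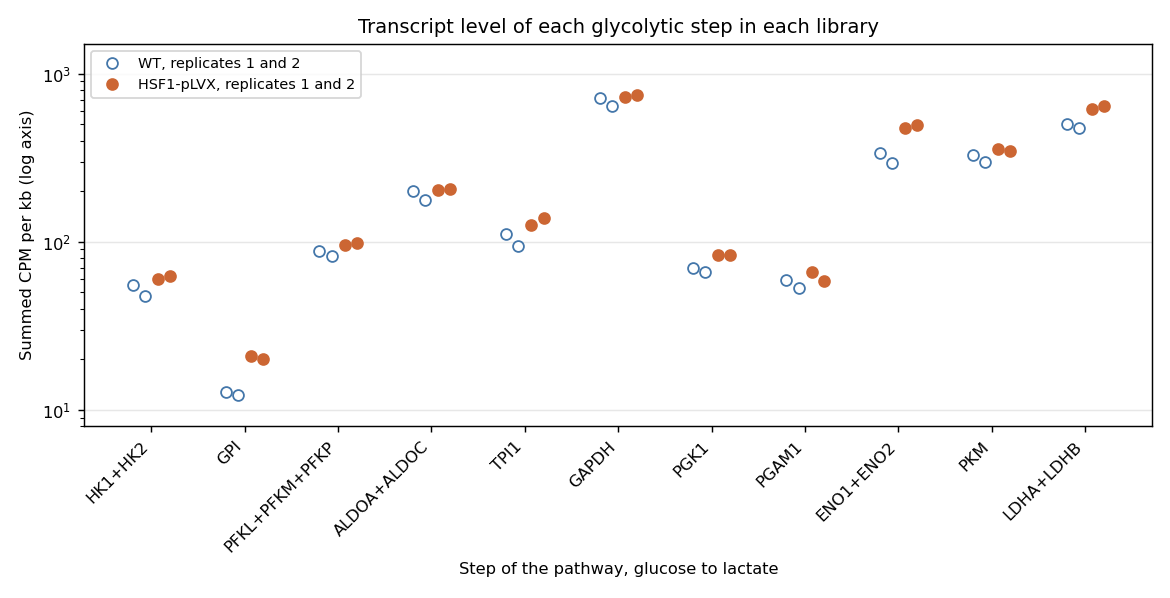
Summed level of the genes of each glycolytic step, in CPM per kb of counted exon on a log axis, in the 2 WT (open) and 2 HSF1-pLVX (filled) libraries, in the order of the pathway. The groups are apart at every step other than phosphoglycerate mutase, and the gap is widest at glucose-6-phosphate isomerase and at enolase.

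Of the 4 tested genes of transport and the pyruvate switch, 1 rose, 1 fell and 2 were not called. The share called was 50%, against 65.9% of all tested genes, of which 32.7% rose and 33.2% fell. SLC2A1 (ENSG00000117394.20, hg38 chr1:42925375-42959173), the glucose transporter GLUT1 and a HIF target, fell from 316 and 306 CPM in WT to 175 and 181 CPM in HSF1-pLVX cells, a log2 difference of -0.80 ± 0.0885 (SE, n = 2 per group; edgeR, adjusted p = 1.83e-06). PDK1 (ENSG00000152256.13, hg38 chr2:172555373-172608669), the kinase that shuts pyruvate dehydrogenase and so keeps pyruvate out of the mitochondrion, rose from 5.75 and 6.14 CPM to 20.2 CPM in both HSF1-pLVX libraries, a log2 difference of 1.76 ± 0.127 (SE, n = 2 per group; edgeR, adjusted p = 2.11e-08). SLC16A3, the lactate exporter MCT4, stood at 357 and 339 CPM in WT and at 338 and 364 CPM in HSF1-pLVX cells and was not called. SLC2A3, the transporter GLUT3, had between 35 and 64 counts per library and was not called. SLC16A1, the lactate carrier MCT1, had 1 count in all 4 libraries together and was not tested. A second entry on the contig KN196474.1 shared all 16 of its exon lengths and held between 3 and 10 counts per library, and how reads that match both entries were counted was not given in the sources used here, so no level of SLC16A1 is reported.

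Wider lists of the same pathways were read against the same background, in which 32.7% of all tested genes rose and 33.2% fell. Of 11 further genes tested from the SLC2A, SLC5A and SLC16A carrier families, with BSG and EMB, 6 rose and 5 fell. SLC16A7, the carrier MCT2, rose from a mean of 1.15 ± 0.0295 CPM (SD, n = 2) to 13.3 CPM in both HSF1-pLVX libraries (log2 difference 3.52; edgeR, adjusted p = 1.13e-09). SLC2A12 fell from 46.6 and 49.1 CPM to 8.80 and 5.94 CPM (log2 difference -2.68; edgeR, adjusted p = 7.36e-10). The log2 differences of SLC2A13 and SLC2A9 were both 1.39, and those of SLC2A5 and SLC16A4 were -1.39 and -1.28. SLC2A13 and SLC2A5 were rare, with 16 to 81 and 7 to 29 counts per library. Of 8 other glycolysis genes tested, 3 rose and 3 fell. BPGM, which diverts a glycolytic intermediate to 2,3-bisphosphoglycerate, fell from 199 and 204 CPM to 18.9 and 16.1 CPM (log2 difference -3.52; edgeR, adjusted p = 4.97e-12), and ENO3, the muscle enolase, rose by a log2 difference of 1.47 (edgeR, adjusted p = 1.20e-04).

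Of 13 genes for the entry of pyruvate into the mitochondrion, 5 rose, 5 fell and 3 were not called (76.9% called, against 65.9% of all tested genes). Among them PDK3 and PDK4, which act like PDK1, rose by 1.21 and 1.03 on the log2 scale, and PDP1, the phosphatase that opposes these kinases, fell by 1.26. All 7 genes of the pentose phosphate pathway were called, 4 higher and 3 lower, and TKT, transketolase, rose from 359 and 309 CPM to 1458 and 1574 CPM (log2 difference 2.18; edgeR, adjusted p = 7.19e-10). Of 9 glycogen genes, 8 fell and 1 rose, against 33.2% and 32.7% of all tested genes, with a median log2 difference of -0.53. The largest of these decreases was that of PYGM, muscle glycogen phosphorylase, a rare transcript that fell by 1.93 on the log2 scale (edgeR, adjusted p = 0.00330).

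A further list of 36 hypoxia targets in the count table had 32 that were tested, of which 16 rose, 11 fell and 5 were not called (84.4% called, against 65.9% of all tested genes). Their median log2 difference was 0.27. LOXL2, a lysyl oxidase that crosslinks collagen, rose from 30.5 and 26.1 CPM to 192 and 188 CPM (log2 difference 2.75; edgeR, adjusted p = 2.84e-11). The next by size were SPAG4, PPFIA4, STC1 and ZNF395. SPAG4 and STC1 had log2 differences of 1.98 and 1.39, PPFIA4 went from 0.906 and 1.18 CPM to 3.39 and 2.97 CPM, and ZNF395 went from 26.7 and 23.0 CPM to 60.0 and 64.4 CPM. In the other direction, PDGFB, a growth factor for pericytes and fibroblasts, fell from 128 and 148 CPM to 7.37 and 4.13 CPM (log2 difference -4.55; edgeR, adjusted p = 3.32e-11), and EDN1, the vasoconstrictor endothelin-1, from 92.5 and 122 CPM to 13.3 and 8.56 CPM (log2 difference -3.27; edgeR, adjusted p = 6.50e-10). RRAGD and HMOX1 fell by 3.29 and 3.12 on the log2 scale, and RORA fell from a mean of 2.87 CPM to 0.711 CPM.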

How the data were processed

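RNA of 2 WT and 2 HSF1-pLVX MCF10A cultures, described by the study as biological replicates, was measured by RNA-seq. The authors aligned the reads to hg38 with HISAT2 2.0.5 and SAMtools 1.13 and counted them per gene with featureCounts 1.6.5; the table names GENCODE release 26. The deposited counts are not normalized. The authors also deposited log2-scale values normalized with DESeq2 1.32.0, used here only as an alternative. The settings for strand and for reads with several matches were not given in the sources used here.

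Counts were filtered with filterByExpr, scaled by TMM and tested with edgeR 4.0.16 (R 4.3.3), quasi-likelihood, HSF1-pLVX against WT, with Benjamini-Hochberg adjustment over 15830 genes. SEs were derived from the log2 difference and its F. Log2 differences came from the edgeR fit with its default prior count. A prior count of 2 was used only for the log2 levels behind the replicate check. An exact permutation test of 2 against 2 libraries cannot go below p = 0.33. Levels are TMM-normalized CPM, and levels of different genes were compared per kb of counted exon. On counts simulated from these libraries with 200 genes changed, 76.3% of those changed by 1 and 96.3% of those changed by 2 on the log2 scale were recovered. The simulation changed far fewer genes than the 65.9% called in the data, so its rates do not carry over to this comparison.

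Deviations of same-numbered libraries correlated at r = 0.000143 over all 15830 genes and at -0.113 over the 9672 genes above 8 CPM. No replicate block was therefore used in the test. The sources used here do not say whether a replicate number marked a shared culture or day. With 2 libraries per group, these correlations cannot settle it. Replicates within each group differed beyond sampling noise (chi-square per degree of freedom 6.62 and 8.04). The largest total of counts on pseudogenes was 3.51% of a gene's own count.

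The genes and lists were chosen with earlier results of these data known. Full statistics were set for every gene of the set called beyond 1 on the log2 scale. They were also set for HIF1A, EPAS1, VEGFA, CA9, LDHA, SLC2A1, HK2, PDK1 and GAPDH. Of each wider list, at most 5 genes a direction beyond 1 were named, by size. ARNT, HIF1AN and PDK2 were named outside this rule. Alternatives were other normalizations, no filter, DESeq2 1.42.0, limma 3.58.1 on the deposited log2 values, the replicate block, an adjusted p of 0.01, pseudogene counts added, leaving out each library, and the ratio rule of the study (above 2 or below 0.5 in both replicates).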

Additional observations from a re-analysis of the deposited data

How the results depend on the processing

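The numbers of genes of the set that rose were between 17 and 21 across the tests, and with the ratio rule of the study on the deposited values 10 (3 of them glycolytic enzymes, in place of 11). The 5 decreases became 3 with library size alone as normalization, 3 at an adjusted p of 0.01, 1 with the ratio rule, and between 3 and 5 when a library was left out; glycolytic enzymes that rose then numbered between 8 and 11. With the replicate block, 20 genes of the set rose and 5 fell, HK1 being the call lost; over all genes the block gave 5138 higher and 5171 lower, in place of 5175 and 5253. DESeq2 called 3765 and 4449 over all genes. Signs turned only in genes that were not called: the log2 difference of PFKP was 0.0148 with library size alone, and that of SLC16A3 was -0.00034 with DESeq2's size factors, -0.0167 with DESeq2 and -0.0164 with limma. With a library left out, PFKP ranged from -0.111 to 0.0180, SLC2A3 from -0.154 to 0.582 and SLC16A3 from -0.0403 to 0.0693. Calls of HK1, TPI1, PGK1, ENO2, EGLN3 and ADM were each lost in at least 1 alternative; the cause was not tested. Library size alone moved the median of all genes to 0.08. With 2 libraries per group, log2 differences were called down to 0.24 (HK1), and the 1 count of CA9 in each WT library limits its ratio.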
